A study of Drosophila melanogaster with 2 samples.

Results

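The proteasome genes of Drosophila melanogaster were examined for binding of sunspot (ssp), a nuclear protein first described in work on Wingless signalling and endoreplication. The members were the protein-coding genes whose symbol in the Ensembl annotation starts with Prosalpha, Prosbeta, Rpn or Rpt, which gave 48 of 13986 protein-coding genes. Of these, 32 encode the constitutive subunits and 16 are paralogs with the suffix R or T. The data came from chromatin immunoprecipitation and sequencing with an anti-GFP antibody in transgenic flies that carry an ssp-eGFP fusion. All samples belong to 1 group of ssp-eGFP embryos, as 2 biological replicates. Each was a collection of whole embryos aged 0 to 24 h, sheared to 200 to 800 bp, so that all embryonic tissues were pooled and adult testis was not part of the material. The labels refer to a possible control experiment, which was not analysed here.

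The proteasome is the barrel-shaped protease that degrades ubiquitin-tagged proteins. Its 20S core is built of rings of alpha subunits, which gate the entrance, and rings of beta subunits, which hold the proteolytic sites. The 19S particle caps the core: its base carries a ring of Rpt ATPases that unfold substrates, together with scaffold subunits and ubiquitin receptors, and its lid removes the ubiquitin chains. Flies and mammals also carry paralogs of core subunits that are used in the male germline, and in flies several of the R and T genes are known as testis-specific forms.

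A gene was counted as having a peak when a summit of the list made from both replicates, here called the combined list, lay within 500 bp of any of its transcription start sites (TSS). The combined list held 4948 peaks, of which 2338 had a summit that close to a protein-coding start. The value given for each peak is the signal assigned by the authors' peak caller, with no read counts, so that depth is unknown. The combined signal of a member was usually close to the sum of its signals in the replicate lists, so signals were compared only within a list. No test was run, since there is only 1 group and genes are not replicates. Shares among the members are given beside the share among all protein-coding genes.

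The sequences shown first are promoters on which the results turn. They are read on the strand of the proteasome gene from the RefSeq release 6 assembly, the same build as the peak lists, and capitals mark the DNA replication-related element (DRE), TATCGATA, which is the site of the transcription factor Dref. The stretches run up to the base before the TSS of the named gene, except that of Rpt5, which runs 12 bases further on each side. Prosbeta2, Prosalpha6, Rpn3 and Rpt5 had an ssp peak, Prosbeta6 has the element without a peak, and Prosalpha6T and Prosbeta2R2 are paralogs with neither.

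Prosbeta2 (chr3L:14999666-14999950, plus strand, from the start of mRpL39 to that of Prosbeta2, summit at base 101): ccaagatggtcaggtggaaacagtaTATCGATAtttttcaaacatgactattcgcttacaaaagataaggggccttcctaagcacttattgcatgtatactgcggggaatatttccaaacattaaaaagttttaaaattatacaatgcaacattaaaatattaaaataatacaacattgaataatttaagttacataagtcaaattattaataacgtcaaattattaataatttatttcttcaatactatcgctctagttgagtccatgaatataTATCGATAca
Prosalpha6 (chr2L:10221216-10221350, plus strand, from the start of Npc1a to that of Prosalpha6, summit at base 68): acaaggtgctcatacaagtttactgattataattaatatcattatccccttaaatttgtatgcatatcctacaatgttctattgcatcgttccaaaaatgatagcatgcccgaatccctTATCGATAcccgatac
Rpn3 (chr2L:19051590-19051789, plus strand, summit at base 190): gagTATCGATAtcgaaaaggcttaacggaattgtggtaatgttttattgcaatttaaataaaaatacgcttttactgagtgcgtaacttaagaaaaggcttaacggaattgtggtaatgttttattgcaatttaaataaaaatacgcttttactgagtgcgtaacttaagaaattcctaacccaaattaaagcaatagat
Rpt5 (chr3R:23752822-23752887, plus strand, across the starts of RanBP3 and Rpt5, summit at base 42): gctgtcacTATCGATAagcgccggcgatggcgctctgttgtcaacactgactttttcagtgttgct
Prosbeta6 (chr3L:16610419-16610558, minus strand): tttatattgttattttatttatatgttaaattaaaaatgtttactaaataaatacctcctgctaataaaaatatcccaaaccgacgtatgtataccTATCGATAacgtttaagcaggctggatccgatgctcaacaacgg
Prosalpha6T (chr2L:13231899-13232038, plus strand): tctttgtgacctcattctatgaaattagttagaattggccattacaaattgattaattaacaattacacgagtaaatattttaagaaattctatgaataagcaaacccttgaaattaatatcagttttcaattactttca
Prosbeta2R2 (chr3R:5219529-5219657, minus strand, from the start of CG1116 to that of Prosbeta2R2): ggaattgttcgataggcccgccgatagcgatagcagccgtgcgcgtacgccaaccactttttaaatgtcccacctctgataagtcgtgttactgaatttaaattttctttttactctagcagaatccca

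Peaks of ssp stood at constitutive proteasome genes and at no paralog. In the combined list 12 of the 48 members (25%) had a peak, beside 2984 of all 13986 protein-coding genes (21.3%). Of the 32 constitutive genes 12 (37.5%) had one, and 0 of the 16 paralogs did. Among genes with at least 1 ranked candidate near a start, the share was 27.9% for the 43 members. It was 42.9% for the 28 constitutive genes and 27.7% for the 10757 protein-coding genes. In the replicate 1 list 11 constitutive genes had a peak, beside 18.0% of all protein-coding genes. In the replicate 2 list 11 had one as well, beside 17.3%. Both replicate lists held 10 of these 12 genes, and the paralogs had 0 peaks in each list.

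**Figure D1:**
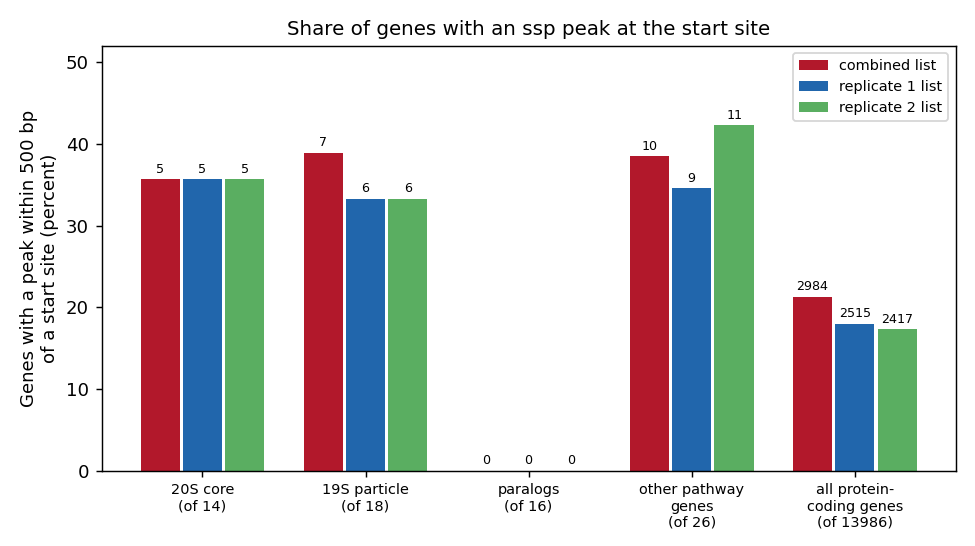
Share of genes with an ssp peak whose summit lay within 500 bp of a start site, in percent, for the combined list and the list of each replicate. Numbers above the bars are genes with a peak. The 20S core and the 19S particle lie above the 21.3% of all protein-coding genes in the combined list, and the 16 paralogs are at 0.

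Peaks were found in the core and in the cap. In the 20S core 5 of 14 genes had a peak (35.7%) and in the 19S particle 7 of 18 (38.9%). By subassembly, peaks stood at 3 of 7 alpha ring genes, 2 of 7 beta ring genes, 4 of 10 base genes and 3 of 8 lid genes. Within the base, 3 of the 4 genes of scaffold subunits and ubiquitin receptors had a peak and 1 of the 6 ATPase genes. These counts are small, and no difference between subassemblies was tested.

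**Figure D2:**
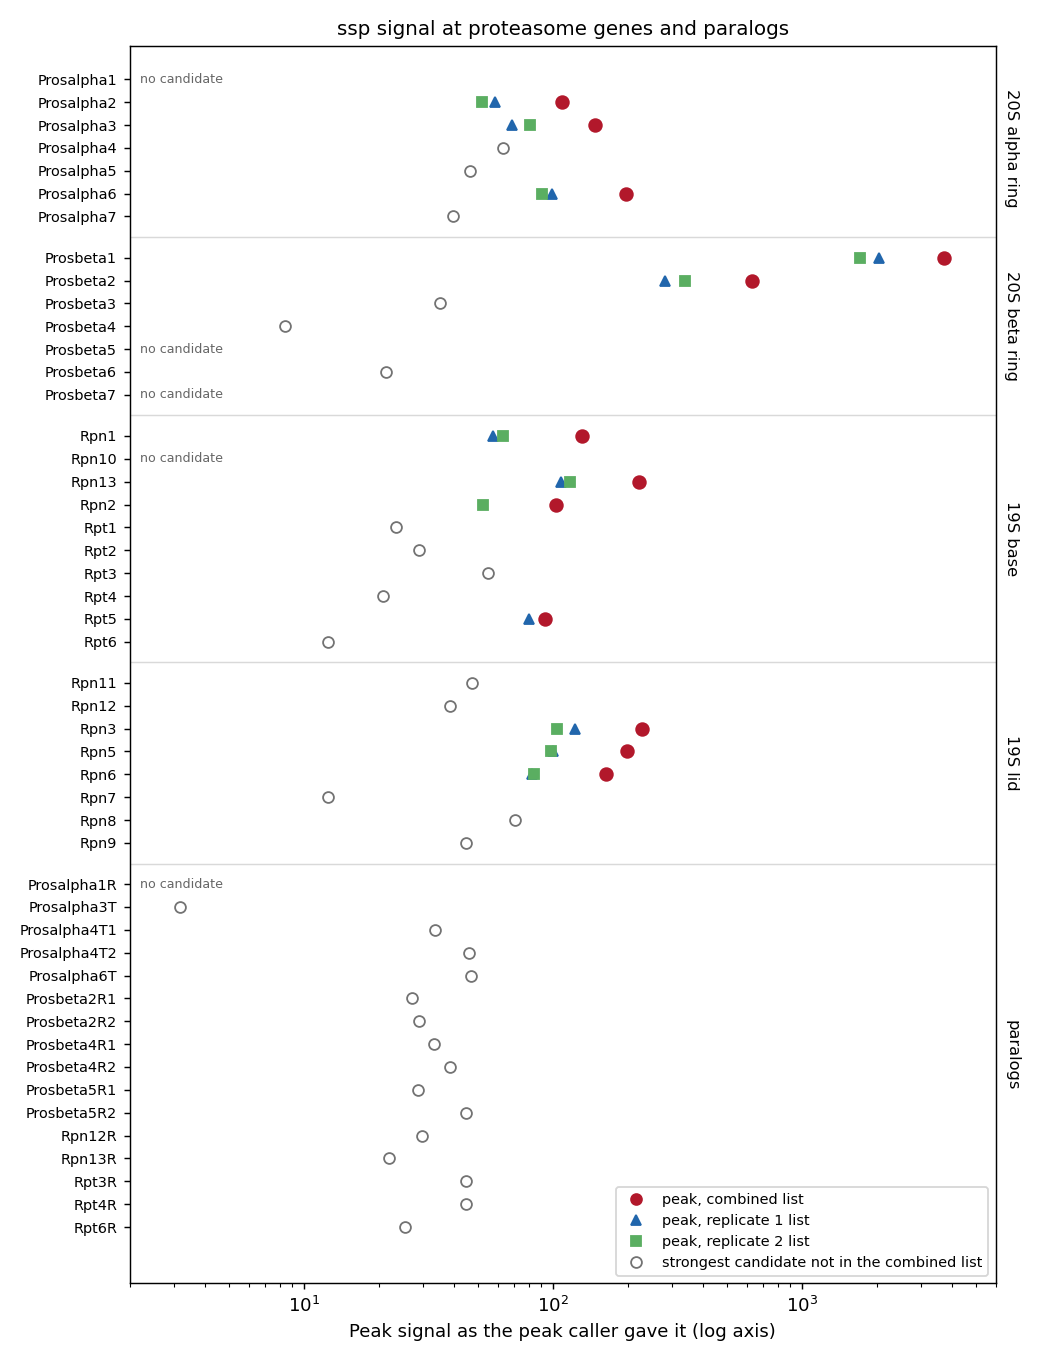
Signal at each of the 48 members on a log axis. Filled symbols are peaks in the combined list (circles) and in the lists of replicate 1 (triangles) and replicate 2 (squares), and open circles are the strongest ranked candidate at members with no peak in the combined list. Prosbeta1 stands at 3739, Prosbeta2 at 629.9 and the other 10 members with a peak between 92.6 and 228.

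The strongest peak stood at the gene of the caspase-like catalytic subunit, Prosbeta1. Its signal was 3739 in the combined list, rank 13 of 4948, and 2039 and 1718 in replicates 1 and 2, ranks 9 and 21. Prosbeta2, the gene of the trypsin-like subunit, came next with 629.9 (rank 412), and with 281 and 340.3 in the replicates. A second summit of the same Prosbeta2 interval, 26 bp downstream of the start, had a signal of 48.7. The third catalytic subunit gene, Prosbeta5, which encodes the chymotrypsin-like activity, had no peak and no ranked candidate within 500 bp of its start in any list. The nearest combined summit was 3499 bp away from it. The genes of the 3 catalytic subunits thus ran from rank 13 to no candidate at all. The strongest summits at Prosbeta1 and Prosbeta2 lay nearer to the start of a divergent neighbour, Rrp42 and mRpL39, as given below.

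The 3 alpha ring genes with a peak had moderate signals. Prosalpha6 had 197 in the combined list and 99.6 and 90.2 in replicates 1 and 2. Prosalpha3 had 148, with 68.3 and 80.8. Prosalpha2 had 109, with 58.5 and 52.1. All 3 lay in the middle of the list, with 67.9, 55.7 and 37.9% of peaks weaker than them, and all 3 were in both replicate lists.

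In the 19S base the ubiquitin receptor gene Rpn13 had the highest signal, 221, with 108 in replicate 1 and 117 in replicate 2. The large scaffold subunit genes followed: Rpn1 with 131 (57.6 and 62.95 in replicates 1 and 2) and Rpn2 with 103. Rpn2 was in the replicate 2 list with 52.6 but not in that of replicate 1. There its strongest candidate had a signal of 54.3 and an irreproducible discovery rate (IDR) of 0.318. This is over 0.01, the limit of the whole-series lists, while that of the replicate lists was not checked. Rpt5 was the ATPase gene with a peak, at 92.6, and it was in the replicate 1 list with 79.9 but not in that of replicate 2, where its candidate had a signal of 17.4. Rpt5 was also absent from the authors' conservative list. As deposited, the signals of Rpn2 in both replicates were alike although the peak passed in only 1 of them. Those of Rpt5 differed.

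The lid genes with a peak were Rpn3 with 228, Rpn5 with 199 and Rpn6 with 164, all structural subunits of the lid. Their signals in replicates 1 and 2 were 123 and 104 for Rpn3, 100.1 and 98.0 for Rpn5, and 82.25 and 83.85 for Rpn6. The gene of the lid's deubiquitinase, Rpn11, had no peak, and its strongest candidate had a signal of 47.3.

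Apart from Prosbeta1 and Prosbeta2 no member had a high signal. The others ran from 92.6 to 228, beside quartiles of 105.3 and 357.3 for all peaks near a protein-coding start. The median signal of all 12 genes, Prosbeta1 and Prosbeta2 included, was 180.6, beside 188.8 for all protein-coding genes with a peak. Among the 10 genes in both replicate lists the log2 ratios of replicate 2 to replicate 1 ran from -0.25 at Prosbeta1 to 0.28 at Prosbeta2, with an SD of 0.19 across genes. Over the 2106 protein-coding genes with a peak in both replicate lists the SD was 0.33 and the median -0.19. In the order of signals Rpn3 and Rpn13 changed places between the replicates, as did Rpn1 and Prosalpha2, so the order within these pairs is not resolved.

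Among the 20 constitutive genes without a peak, 16 had a ranked candidate near a start, with strongest signals between 8.37 and 70.6 and a median of 37.0. The 15 paralogs with a candidate had strongest signals between 3.17 at Prosalpha3T and 47.1 at Prosalpha6T, with a median of 33.4. The same median over the 7773 protein-coding genes with a candidate and no peak was 31.6. Some constitutive genes came close to the limit of 0.01. Prosalpha4 had an IDR of 0.0117 in the ranking behind the combined list and of 0.00595 in that behind the conservative list, which holds it with a signal of 63.2. Rpt3 reached 0.0166 in the first of these rankings and Rpn8 0.0122 in the second. Further off was Prosalpha5 at 0.0543, and the paralog nearest to the limit was Prosalpha6T at 0.0923.

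The remaining constitutive genes with a candidate only were the core genes Prosalpha7, Prosbeta3, Prosbeta4 and Prosbeta6, the ATPase genes Rpt1, Rpt2, Rpt4 and Rpt6 and the lid genes Rpn7, Rpn9, Rpn11 and Rpn12. No candidate of the ranked combined lists lay at Prosalpha1, Prosbeta5, Prosbeta7 and the ubiquitin receptor gene Rpn10. The start region of Prosalpha1, and that of its neighbouring copy Prosalpha1R, consisted wholly of sequence found elsewhere in the assembly: 100% of the 50-letter words within 500 bp of the start occur more than once. How the authors treated reads from such sequence is not given in the sources used here, so the lack of a candidate at this pair says nothing about binding. For the other 46 members this share was between 0 and 6.9%. Without the pair, 12 of 31 constitutive genes (38.7%) and 0 of 15 paralogs had a peak.

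Paralogs had no peak even where the gene they are named after did. The 16 paralogs correspond to 12 constitutive genes, of which 4 had a peak: Prosalpha3, Prosalpha6, Prosbeta2 and Rpn13. Their 5 paralogs are Prosalpha3T, Prosalpha6T, Prosbeta2R1, Prosbeta2R2 and Rpn13R, with strongest candidates of 3.17, 47.1, 27.2, 28.9 and 22.0. At Prosbeta2 the signal was 629.9. The other paralogs were Prosalpha4T1, Prosalpha4T2, Prosbeta4R1, Prosbeta4R2, Prosbeta5R1, Prosbeta5R2, Rpn12R, Rpt3R, Rpt4R and Rpt6R, whose strongest candidates ran from 25.6 to 46.2, and Prosalpha1R, which had none. The nearest combined summit was between 3050 bp (Rpt3R) and 105611 bp (Prosbeta5R2) from a paralog's start, with a median of 19274 bp.

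Summits lay just upstream of the proteasome genes. All 12 strongest summits were upstream of the member's nearest own start, from 226 bp upstream at Prosalpha2 to 11 bp upstream at Rpn3, with a median position of -87.5 bp. Over the 2338 combined peaks near a protein-coding start the median position was -92 bp and 84.3% were upstream. These were measured from the nearest start of any protein-coding gene, and the members from their own, so the values are not on the same measure. At Rpn5 the nearest start was that of Hat1, and the summit lay 76 bp downstream of it. Replicate summits of the 10 genes in both lists were a median of 13 bp apart, from 4 bp at Prosbeta1 to 102 bp at Prosalpha2. The window of 101 bases at the summit had a median GC content of 36.6%, beside 33.7% for all peaks near a protein-coding start.

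**Figure D3:**
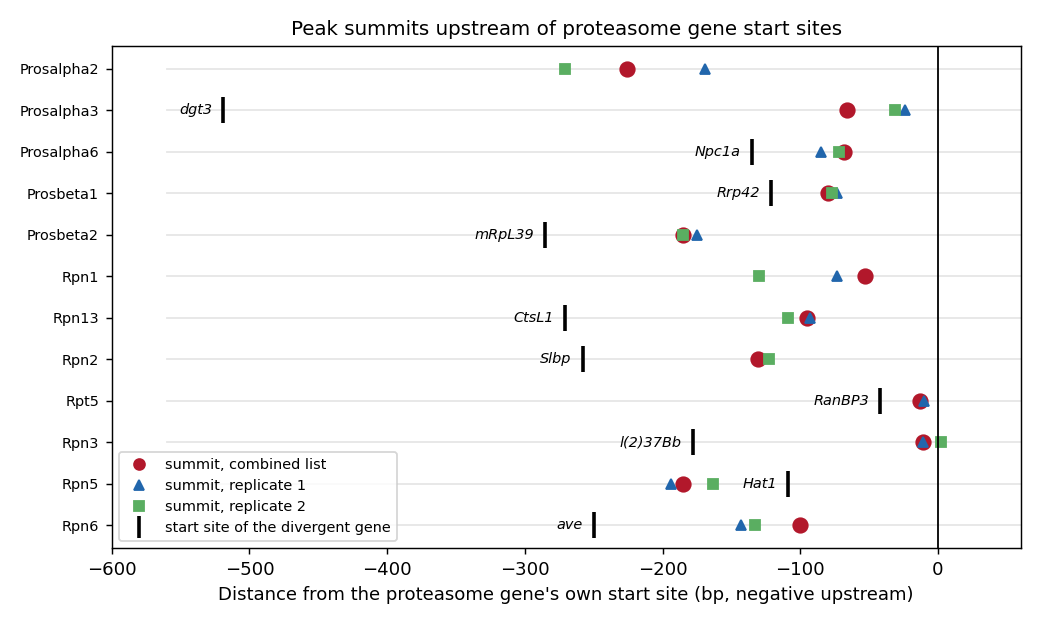
Position of the peak summit relative to the start site of each proteasome gene with a peak, in bp, for the combined list (circles), replicate 1 (triangles) and replicate 2 (squares). Vertical ticks mark the start of the gene on the opposite strand. In 9 of the 10 pairs the combined summit lies between the starts, and at Rpn5 it lies beyond the start of Hat1.

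The peak intervals, as deposited on dm6, were mostly 416 bp wide. On arm 2R they were chr2R:16014649-16015087 for Prosbeta1, chr2R:20994626-20995041 for Prosalpha3, chr2R:13960291-13960706 for Rpn13 and chr2R:14752163-14752578 for Rpn6. On 2L they were chr2L:10221206-10221344 for Prosalpha6 and chr2L:19051741-19051870 for Rpn3, which were the narrowest at 139 and 130 bp. On 3L they were chr3L:14999563-14999978 for Prosbeta2 and chr3L:19914790-19915205 for Rpn1. On 3R they were chr3R:12430887-12431302 for Prosalpha2, chr3R:5789100-5789515 for Rpn5, chr3R:23752655-23753070 for Rpt5 and chr3R:29153185-29153600 for Rpn2. The intervals at Prosbeta2, Prosalpha6, Rpn3 and Rpt5 cover or overlap the promoter stretches shown above.

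Most of these peaks were shared with a neighbouring gene that is transcribed in the opposite direction. At 10 of the 12 genes the summit was also within 500 bp of the start of a divergent protein-coding gene. Prosalpha2 and Rpn1 had no other protein-coding start within 500 bp of the summit. Such pairing was common among genes with a peak in general. A divergent start within 1000 bp upstream was present at 10 of the 12 genes and at 1927 of the 2984 protein-coding genes with a peak. The partners have varied roles. Prosbeta1 shares its peak with Rrp42, a gene of the RNA exosome, and the summit lay 80 bp upstream of Prosbeta1 and 41 bp upstream of Rrp42. Prosbeta2 shares it with the mitochondrial ribosomal protein gene mRpL39, 185 and 100 bp upstream of the 2 starts. Rpn2 is paired with Slbp, whose product binds the stem-loop of histone mRNAs, and Rpn5 with the histone acetyltransferase gene Hat1. Rpn13 is paired with the lysosomal cathepsin gene CtsL1, Prosalpha6 with the sterol transport gene Npc1a, Prosalpha3 with the augmin gene dgt3 and Rpt5 with RanBP3. The partners of Rpn3 and Rpn6 are l(2)37Bb and ave. The start nearest to the summit was the partner's at Prosbeta1, Prosbeta2, Prosalpha6, Rpn2 and Rpn5, by 1 bp at Prosalpha6 and by 4 bp at Rpn2. With every peak given to its closest start alone, 8 of the 12 genes kept one, and Prosbeta1, Prosalpha6, Rpn2 and Rpn5 lost theirs. Prosbeta2 then kept only its weak second summit of 48.7.

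Divergent promoters are frequent among the constitutive proteasome genes. A protein-coding start on the other strand lay within 1000 bp upstream at 22 of the 32 constitutive genes and at 4 of the 16 paralogs, beside 5056 of all 13986 protein-coding genes. Of the 22 constitutive genes with such a partner 10 had a peak, beside 38.1% of all protein-coding genes with a partner. Of the 10 without one, 2 had a peak, beside 11.8%. No paralog of either kind had one. The share with a peak moved with this arrangement, whose part in the result was not tested. Constitutive genes with a divergent partner but no peak include Prosbeta5, 94 bp from dgo, Rpt2, 81 bp from CG13599, and Rpt4, 58 bp from mldr.

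The DRE was frequent in the promoters of constitutive proteasome genes. From 250 bp before to 50 bp after the most upstream start, 12 of 32 constitutive promoters (37.5%) held TATCGATA, beside 1307 of 13968 protein-coding promoters (9.36%), and 0 of the 16 paralog promoters did. It was present at 7 of the 12 genes with a peak: Prosbeta1, Prosbeta2, Prosalpha3, Prosalpha6, Rpn3, Rpn13 and Rpt5. Among the 20 constitutive genes without a peak it was present at 5, Prosalpha5, Prosbeta6, Rpn7, Rpn9 and Rpn12. Over all protein-coding genes it was in 16.9% of promoters with a peak and in 7.30% of those without. Put the other way, 7 of 12 constitutive genes with the DRE (58.3%) and 5 of 20 without it (25%) had a peak, beside 38.6 and 19.6% of all protein-coding genes. The element also varies with gene arrangement. It was in 9 of 22 constitutive promoters with a divergent partner, beside 15.8% of all such protein-coding promoters, and in 3 of 10 without one, beside 5.71%.

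**Figure D4:**
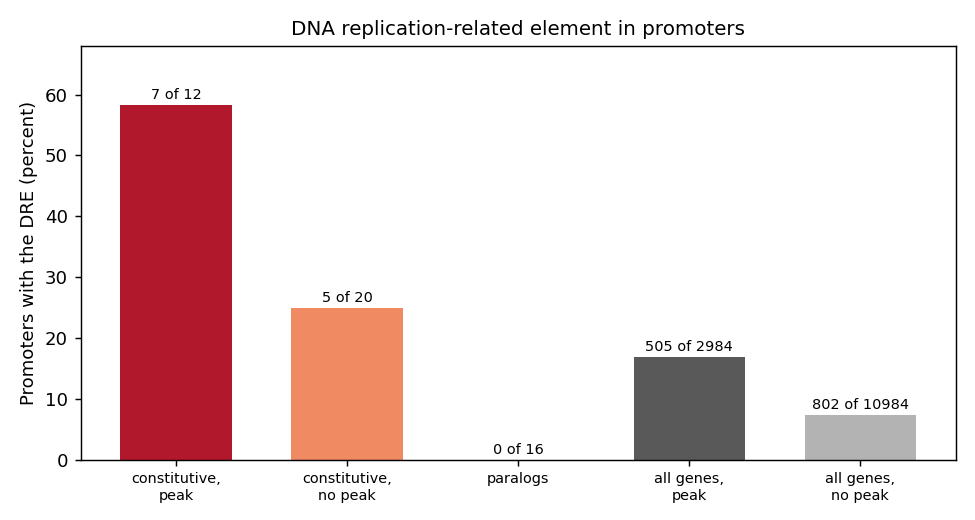
Share of promoters that hold the DRE, in percent, for constitutive proteasome genes with and without an ssp peak, for the paralogs and for all protein-coding genes with and without a peak. Numbers above the bars are promoters with the element and promoters examined. The 12 constitutive genes with a peak reach 58.3% and the paralogs are at 0.

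The element was not always under the summit. The distance between the combined summit and the centre of the nearest DRE was 25 bp at Prosalpha3, 29 bp at Rpt5, 38 bp at Prosbeta1, 56 bp at Prosalpha6, 71 bp at Prosbeta2, 91 bp at Rpn3 and 119 bp at Rpn13. Prosbeta2 and Rpn3 each have 2 copies within 500 bp of the summit, and the copy in their promoter window was the farther one, 179 and 182 bp away. The other 5 genes with a peak had no copy within 500 bp of the summit. Within 50 bp of the summit 3 of 12 members had it (25%), beside 5% of all peaks near a protein-coding start, and within 100 bp 6 of 12, beside 10.4%. In windows centred 500 bp from the summits it was found in 0 of 24 for the members and in 0.321% for all such peaks. In the sequences shown above, the Prosbeta2 stretch carries the DRE a little inside each of its ends, next to the start of mRpL39 and next to that of Prosbeta2, with the summit nearer to the first. In Prosalpha6 it lies 12 bp upstream of the start. In the Rpn3 stretch the element starts at base 4, and a run of 82 bases starts at base 14 and again at base 92, its copies slightly overlapping, before the summit at base 190.

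The other promoter motifs were present at few members, apart from TATAAA. GGTCACAC, Ohler motif 1, was in 2 of 12 promoters with a peak, 3 of 20 constitutive promoters without one and 0 of 16 paralog promoters, beside 7.69% of all promoters. CATCNCTA, Ohler motif 7, was in 2, 2 and 1 of them, beside 6.41%, and the Rpn1 peak was the one with it within 50 bp of the summit. TATAAA was in 3, 10 and 5, beside 45.8%, and CAGCTG, an E-box, in 0, 1 and 1, beside 17.6%. GAGAG, the repeat bound by GAGA factor, was in 1, 2 and 6, beside 29.7%. TGACNNNGC, the antioxidant response element through which the cap'n'collar factor activates proteasome genes in flies, was in 2, 3 and 1, beside 8.62%. The E2F words TTTCCCGC and TTTGGCGC were in none of the 48 promoters, beside 1.42 and 2.36% of all. Within 50 bp of the 12 member summits TATAAA was found at Rpn6 only, GAGAG at Rpn13 only and CATCNCTA at Rpn1 only. Over all peaks near a protein-coding start these were found at 21.0, 7.36 and 2.99%. GGTCACAC, CAGCTG and TGACNNNGC were at no member summit, beside 2.10, 3.93 and 2.65%. Neither E2F word was, beside 0.385 and 0.599%. All motifs were sought on both strands, and 2 pairs among the 67 sites in member promoters overlapped.

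The members lay on 5 arms. Of the 13 on 2R 4 had a peak, beside 20.1% of all protein-coding genes of that arm, and of the 14 on 3R 4, beside 21.4%. Of the 8 on 2L 2 had one, and of the 7 on 3L 2, beside 20.9% on each of these arms. Of the 6 on X (Prosalpha4, Rpt3, Rpt4, Rpt6, Prosbeta2R1 and Rpn13R) 0 had one, beside 23.1%, and these numbers of members are too small to compare the arms. Of these 6, Prosalpha4 and Rpt3 were among those near the IDR limit.

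Peaks also stood at genes that act with the proteasome. Of 26 further genes of the ubiquitin-proteasome pathway 10 (38.5%) had a peak, beside 21.3% of all protein-coding genes. This list was chosen with earlier results of these data known. Of its 15 genes with a divergent partner 5 had a peak, and of the 11 without one 5. For all protein-coding genes these shares were 38.1 and 11.8%. All 26 had a ranked candidate, and of all protein-coding genes with one 27.7% had a peak. The strongest was at Rad23, a shuttle for ubiquitinated proteins, with 2309 in the combined list and 1219 and 1090 in replicates 1 and 2. Rad23 lies on chromosome 4, where 43 of 80 protein-coding genes (53.8%) had a peak, beside 20.1 to 23.1% on the other arms. Next came RpS27A, which encodes ubiquitin fused to a ribosomal protein, with 1176 (580 and 605 in the replicates), and Pngl, a peptide N-glycanase gene, with 712 (400.3 and 326). These 3 were stronger than every proteasome gene except Prosbeta1. The deubiquitinase gene Usp14 had 337, the core maturation factor gene Pomp 255, CG9588 191, the chaperone gene Hsp83 181, CG12096 172, the cap'n'collar gene cnc 140.5 and the polyubiquitin gene Ubi-p63E 118. No combined peak lay at the activator gene REG, the regulator gene PI31, the small lid subunit gene Sem1, the assembly factor gene PSMG1, Uch-L5, Ubqn, CG13319, TER94, Ufd1, Npl4, Ubi-p5E, RpL40, Uba1, maf-S, Keap1 or rngo. Of the 8 genes of the cytosolic chaperonin, another large ring complex, 2 (25%) had a peak, CCT8 with 160 and CCT6 with 94.0. Neither Ubi-p63E nor CCT6 was in the replicate 1 list.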

How the data were processed

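For 2 biological replicates, and for both combined, the authors deposited ranked and thresholded peak lists on the dm6 assembly. No source used here names the aligner or the peak caller. The signal, as deposited, is what the authors' caller assigned to a peak, with no stated scaling between lists. The ranked lists also hold a deposited −log10 of the IDR. Both thresholded lists of the whole series held only candidates at or under an IDR of 0.01. Not all such candidates were kept: 198 of 5146 were absent from the combined list and 192 of 4911 from the conservative list. The limit of the replicate lists was not checked. In the combined ranked lists, 16 columns whose sample is not named were left out. Depth is unknown, so no counting precision is given.

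Summits were assigned in Python 3.11.15 to genes of Ensembl release 115 with a start within 500 bp, and coordinates count from 1. Functions were checked on planted summits and motifs. Every member was named. Members, lists and motifs were chosen with earlier results of these data known. Ufd1 was matched through an older symbol. Motif shares used windows of 50 bp each side of the summit or promoters from 250 bp before to 50 bp after a start. Alternatives were the conservative list, each replicate alone, windows of 200 and 1000 bp, the nearest start only, peaks above the median signal, genes with a candidate only, and wider or shifted motif windows. Leaving out Prosalpha1 and Prosalpha1R and using any annotated start for the DRE were added after the data were seen.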

Additional observations from a re-analysis of the deposited data

How the results depend on the processing

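The absence of peaks at the 16 paralogs held in all 7 alternatives run on it, with 0 genes each time. Only the conservative list and the single replicates could have changed it. The window of 200 bp, the nearest start and the stronger peaks can only remove peaks. The window of 1000 bp could not add one, as the combined summit nearest to any paralog's start was 3050 bp away. The count of 12 proteasome genes was 12 in the conservative list, which gained Prosalpha4 and lost Rpt5, 11 in each single replicate and 11 with a window of 200 bp, which lost Prosalpha2. Among the stronger peaks it was 8, beside 1980 of all protein-coding genes against 2984, and the 19S particle fell from 7 genes to 4. With the nearest start only it was 8, beside 2205 of all protein-coding genes (15.8%), and the 20S core fell from 5 genes to 3. A window of 200 bp left 6 of the 10 other pathway genes with a peak, and 2224 of the 2984 protein-coding genes (15.9% of all in place of 21.3%). Among genes with a ranked candidate the share of proteasome genes with a peak was 27.9% in place of 25%. For all protein-coding genes it was 27.7% in place of 21.3%. Without Prosalpha1 and Prosalpha1R the constitutive share was 38.7%. The median signal of 180.6 ranged from 90.2 without replicate 1 to 99.6 without replicate 2, in lists whose signals are lower throughout, and it was 197 with a window of 200 bp and 139.6 with the nearest start only. The median summit position ranged from -123 bp without replicate 1 to -85 bp without replicate 2, and was -59.5 bp with the nearest start only. Rpt5 has no value without replicate 1 and Rpn2 none without replicate 2. The DRE share at all peaks near a protein-coding start rose from 5% to 10.4% with 100 bp each side, and in the shifted windows the shares were 0.321% for these peaks and 0 for the members. With any annotated start 12 constitutive promoters held the DRE, as before, but 1 paralog promoter then did. The causes were not tested.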
